A study of Rattus norvegicus with 8 samples.

Results

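The 10 transcripts described here belong to the insulin-like growth factor (IGF) system. They are the ligands Igf1 and Igf2, the receptors Igf1r and Igf2r, and the binding proteins Igfbp2 to Igfbp7. Members were the rows of the deposited gene table whose gene symbol is one of these names, and all 10 were found, each in 1 row, among 31699 rows. The cells were AFCs, cells isolated from the annulus fibrosus (the fibrous outer ring of the intervertebral disc) of Sprague Dawley rats and used at the third generation in culture. Every cell preparation combined annulus tissue from 8 animals. AFCs were infected with the control vector pLVX-shRNA-Puro (Lv-Ctrl, 4 samples) or with pLVX-shRNA-Puro-Piezo1, which carries a short hairpin RNA against the mechanosensitive channel Piezo1 (Lv-Piezo1, 4 samples), at a multiplicity of infection of 20 for 24 h. All 8 samples were then under cyclic mechanical stretch (CMS) at 20% elongation and 0.5 Hz for 36 h, so no sample without stretch or without lentivirus enters the comparison. The question was how the transcripts of stretched AFCs differ when Piezo1 is targeted.

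IGF1 and IGF2 are secreted growth factors that act through the tyrosine kinase receptor IGF1R, which passes the signal to the PI3K-AKT and MAP kinase pathways and favours survival and matrix synthesis in disc and cartilage cells. IGF2R carries IGF2 to lysosomes for degradation and also sorts lysosomal enzymes. Most IGF outside the cell is held by binding proteins of the IGFBP family, which can block or prolong its action and are cut by proteases, while IGFBP7 binds IGF only weakly.

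Piezo1 itself went against the label. Its transcript averaged 30.1 ± 2.67 TPM under the Lv-Ctrl label and 39.4 ± 1.75 TPM under the Lv-Piezo1 label (SD over 4 samples). The log2 fold change of Piezo1 was 0.38 (limma adjusted p = 8.6e-04) on the deposited values, 0.21 (adjusted p = 0.0036) after median-ratio scaling and 0.26 (adjusted p = 0.0031) after quantile normalization. Whether labels or columns were exchanged was not tested. Lv-Ctrl and Lv-Piezo1 therefore stand below for samples so labelled, and each direction is that of Lv-Piezo1 relative to Lv-Ctrl. TPM, a relative transcript level corrected for transcript length, keeps no sequencing depth, so the depth is unknown and precision rests on the 4 samples of a group. Genes were compared with limma on log2(TPM + 1), a scale that understates changes of low genes, over the 13103 genes with a mean of at least 1 TPM. A gene passed the threshold at a Benjamini-Hochberg adjusted p below 0.05 over all these genes and a log2 fold change of at least 1 in either direction. Of all tested genes, 7.67% passed, 4.91% higher and 2.76% lower, and the higher genes were 64.1% of those that passed, against 51.4% after median-ratio scaling of the samples and 48.8% after quantile normalization. The median log2 fold change of all tested genes was 0.14 on the deposited values and -0.019 after median-ratio scaling, so both values are given below for the members. The labels do not say that samples of a group came from separate isolations. The study's methods speak of 4 biological repeats and count the differently treated cells of an isolation as 1 repeat, which would pair samples across groups. Which samples share an isolation is not labelled, so the main fit is unpaired and a fit with the replicate number as a block is an alternative. The limma p-values set a group difference against the spread between these samples within groups. Whether that spread is one between separate isolations is not labelled. Replicates correlated at 0.973 to 0.983 and samples of different groups at 0.939 to 0.945. Mitochondrially encoded genes held 6.87% to 7.74% of TPM in Lv-Ctrl and 5.69% to 6.16% in Lv-Piezo1, and leaving them out changed no call of an IGF gene. The IGF genes divided into 7 that were tested and 3 (Igf1, Igf2 and Igfbp5) whose mean was under 1 TPM.

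The results turn on Igfbp2, which rose, and on Igfbp3 and Igfbp4, which fell. Their start-site regions are shown so that the sequences ahead of the genes that passed the threshold can be read beside the values. Each runs from 250 bases before to 50 bases after the RefSeq start of the gene in build GRCr8, 5′ to 3′ on the strand of the gene. The capitals mark a GC box (GGGCGG or CCGCCC) in Igfbp2, a TATA-like box (TATATA) in Igfbp3 and a TATA box (TATAAA) in Igfbp4.
Igfbp2, chr9:81864561-81864860, plus strand: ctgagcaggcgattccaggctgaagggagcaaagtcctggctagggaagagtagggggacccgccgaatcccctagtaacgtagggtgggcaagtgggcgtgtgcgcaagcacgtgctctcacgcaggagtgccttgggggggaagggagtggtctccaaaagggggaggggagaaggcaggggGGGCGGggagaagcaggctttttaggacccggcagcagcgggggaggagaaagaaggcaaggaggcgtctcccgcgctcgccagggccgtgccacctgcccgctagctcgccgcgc
Igfbp3, chr14:86277895-86278194, minus strand: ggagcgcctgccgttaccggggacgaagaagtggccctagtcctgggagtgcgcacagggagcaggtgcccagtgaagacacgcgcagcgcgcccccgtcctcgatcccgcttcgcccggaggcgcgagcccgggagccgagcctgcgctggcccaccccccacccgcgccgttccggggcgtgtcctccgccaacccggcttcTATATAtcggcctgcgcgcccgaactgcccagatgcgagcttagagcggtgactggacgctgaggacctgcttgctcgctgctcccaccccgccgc
Igfbp4, chr10:84491221-84491520, plus strand: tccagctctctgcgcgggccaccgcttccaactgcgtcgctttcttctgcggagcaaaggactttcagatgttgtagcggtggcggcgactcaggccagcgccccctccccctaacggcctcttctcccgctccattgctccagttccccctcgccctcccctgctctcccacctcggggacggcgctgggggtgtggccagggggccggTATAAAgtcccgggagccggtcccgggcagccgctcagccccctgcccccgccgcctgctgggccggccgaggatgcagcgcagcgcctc

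All 3 windows were rich in G and C, with 66.7% in Igfbp2, 71.7% in Igfbp3 and 71.0% in Igfbp4 against a median of 51.7% over 33469 RefSeq windows of the same length. The TATA box of Igfbp4 starts 40 bases and the TATA-like box of Igfbp3 starts 46 bases ahead of the annotated start. On the strand of the gene, TATAAA stands in 8.80% and TATATA in 6.15% of all windows, and among the 11 windows of the 10 IGF genes each stands in 1. The GC box, searched on both strands, stands in 6 of the 11 windows (of Igf1r, Igf2, Igf2r, Igfbp2 and Igfbp7) and in 33.1% of all windows. Neither CCAAT (or ATTGG, 37.5% of all windows) nor the AP-1 motif TGANTCA (7.33%) stands in any of the 11. The FOXO motif TGTTTAC (or GTAAACA, 3.78%) stands in Igfbp6, and both the TEAD motif CATTCC (or GGAATG, 14.2%) and a CArG box (1.64%) stand in windows of Igf2. The TATATA search was added after the Igfbp3 window had been read. A match is a description of these letters and not a site of binding.

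Transcripts of the ligands were very low in both groups. Igf1 (ENSRNOG00000004517) measured 0.03, 0.05, 0.04 and 0.24 TPM in the Lv-Ctrl replicates (1 to 4, in this order throughout) and 0.30, 0.22, 0.05 and 0.13 TPM in the Lv-Piezo1 replicates. The groups overlapped and a difference was not detectable (exact two-sided permutation test on log2(TPM + 1), p = 0.29). Igf2 (ENSRNOG00000020369) measured 0.16, 0.13, 0.14 and 0.15 TPM in Lv-Ctrl and 0.28, 0.28, 0.19 and 0.21 TPM in Lv-Piezo1. Every Lv-Piezo1 sample was higher (p = 0.029 in the same exact permutation test, which cannot go lower with 4 against 4 samples), with no sample above 0.28 TPM. The ratio of Igf1 to Igf2 ranged from 0.188 to 1.60 in Lv-Ctrl and from 0.263 to 1.07 in Lv-Piezo1. The sum of both ligands was 0.235 ± 0.103 TPM in Lv-Ctrl and 0.415 ± 0.154 TPM in Lv-Piezo1 (SD, n = 4 each). The cells were grown in medium with serum, a known source of IGF protein that these values do not cover.

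**Figure D1:**
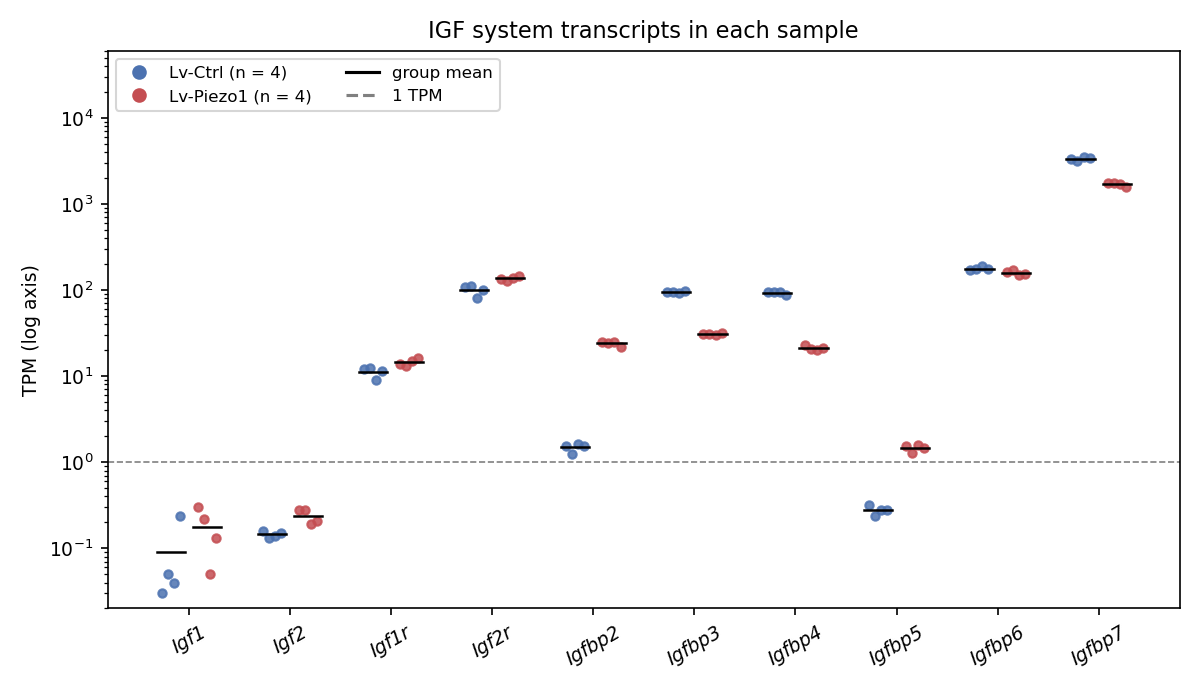
TPM of the 10 IGF genes in each of the 8 samples on a log axis. Points are samples, bars are group means (n = 4 each) and the dashed line marks 1 TPM, the mean required for testing. The ligands lie below 1 TPM and Igfbp7 lies above all others in every sample. The groups do not overlap for 8 genes, all but Igf1 and Igfbp6, as for 54.2% of all tested genes. Of the 8, Igf2 and Igfbp5 were below the mean required for testing.

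Transcripts of both receptors were present and somewhat higher in Lv-Piezo1, below the threshold for the fold change. Igf1r (ENSRNOG00000014187) measured 12.2, 12.3, 8.94 and 11.3 TPM in Lv-Ctrl and 13.8, 13.1, 14.9 and 16.0 TPM in Lv-Piezo1. Every Lv-Piezo1 sample was higher than every Lv-Ctrl sample. The log2 fold change of Igf1r was 0.35 (95% interval 0.12 to 0.58, limma adjusted p = 0.016). After median-ratio scaling it was 0.18, with a limma adjusted p of 0.079, and over all alternatives the adjusted p ran from 0.013 to 0.088.

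Igf2r (ENSRNOG00000014997) was the more abundant receptor. It measured 109.7, 111, 79.9 and 100.81 TPM in Lv-Ctrl and 134, 127, 139 and 145 TPM in Lv-Piezo1, with no overlap. Its log2 fold change was 0.45 (95% interval 0.23 to 0.67, limma adjusted p = 0.0037) on the deposited values and 0.27 (limma adjusted p = 0.014) after median-ratio scaling. Replicate 3 labelled Lv-Ctrl was the lowest sample for both receptors, and without it the log2 fold change was 0.34 for Igf2r and 0.25 for Igf1r. The ratio of Igf2r to Igf1r, which does not depend on the scaling of a sample, was nearly constant at 8.96 ± 0.0456 in Lv-Ctrl and 9.44 ± 0.332 in Lv-Piezo1 (SD, n = 4 each). The lowest ratio in Lv-Piezo1 was 9.02 and the highest in Lv-Ctrl 9. The insulin receptor Insr, a close relative of Igf1r, was lower than both, at 3.21 ± 0.252 TPM in Lv-Ctrl and 4.44 ± 0.484 TPM in Lv-Piezo1.

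Igfbp2 (ENSRNOG00000016957) had the largest change among the IGF genes. IGFBP2 binds IGF2 with preference and carries a sequence through which it can attach to integrins. Its transcript measured 1.54, 1.24, 1.62 and 1.53 TPM in Lv-Ctrl and 24.8, 24.5, 24.6 and 21.8 TPM in Lv-Piezo1. The values of Lv-Piezo1 were tight and lay far above those of Lv-Ctrl. Igfbp2 rose 16.2-fold in mean TPM, and its log2 fold change was 3.33 (95% interval 3.17 to 3.49, limma adjusted p = 2.1e-09), the 39th largest in size of the 13103 tested genes. After median-ratio scaling it was 3.19, and with a pseudocount of 0.1, which compresses low values less, 3.93.

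Igfbp3 and Igfbp4 fell. IGFBP3 is the main carrier of IGF in the circulation and also acts on cells by itself. Igfbp3 (ENSRNOG00000061910) measured 93.8, 93.7, 93.1 and 97.2 TPM in Lv-Ctrl and 31.2, 30.9, 29.8 and 32.0 TPM in Lv-Piezo1. The fall was 3.05-fold, with a log2 fold change of -1.58 (95% interval -1.66 to -1.5, limma adjusted p = 2.2e-09) and of -1.75 after median-ratio scaling. The groups lay far apart beside the spread within each of them.

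IGFBP4 is known mainly as an inhibitor of IGF action that is released from IGF by cleavage. Igfbp4 (ENSRNOG00000010635) measured 95.9, 94.2, 95.5 and 87.8 TPM in Lv-Ctrl and 22.9, 20.4, 20.1 and 21.2 TPM in Lv-Piezo1. The fall was 4.41-fold, with a log2 fold change of -2.09 (95% interval -2.20 to -1.98, limma adjusted p = 3.7e-09) and of -2.27 after median-ratio scaling. In Lv-Ctrl, Igfbp3 and Igfbp4 stood at almost the same level, with a ratio of 1.01 ± 0.063, while in Lv-Piezo1 the ratio was 1.47 ± 0.0705 (SD, n = 4 each). The ratio of Igfbp3 to Igfbp2 went from 57.5 to 75.6 in the Lv-Ctrl samples down to 1.21 to 1.47 in the Lv-Piezo1 samples.

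Igfbp5 (ENSRNOG00000017206) lay below 1 TPM on average and was not part of the fit. IGFBP5 binds to extracellular matrix and is abundant in many connective tissue cells. Igfbp5 measured 0.32, 0.24, 0.28 and 0.28 TPM in Lv-Ctrl and 1.55, 1.28, 1.59 and 1.48 TPM in Lv-Piezo1. All Lv-Piezo1 samples were higher, 5.27-fold in mean TPM (exact two-sided permutation test on log2(TPM + 1), p = 0.029, the smallest this design allows), and the difference of means on that scale was 0.95. With no filter on low TPM, so that all rows were fitted, limma gave the same difference an adjusted p of 2.3e-05. Igfbp5 is the next protein-coding gene after Igfbp2 on chromosome 9 of GRCr8, on the opposite strand, and the same arrangement on chromosome 14 holds Igfbp3 and Igfbp1, which was listed at 0 in every sample. Of 7 tested protein-coding neighbours of the 10 IGF genes, 1 passed the threshold, Igfbp2 itself as the neighbour of Igfbp5. Among all tested genes 7.67% passed. The ratio of Igfbp2 to Igfbp5 was 5.31 ± 0.416 in Lv-Ctrl and 16.3 ± 1.92 in Lv-Piezo1 (SD, n = 4 each).

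Igfbp6 (ENSRNOG00000010977), whose product binds IGF2 with strong preference, differed little. It measured 168, 175, 191 and 174 TPM in Lv-Ctrl and 161, 169, 149 and 152 TPM in Lv-Piezo1, and the groups overlapped. Its log2 fold change was -0.16 (95% interval -0.28 to -0.045, limma adjusted p = 0.024) on the deposited values and -0.34 (limma adjusted p = 0.0042) after median-ratio scaling. The adjusted p ran from 0.0042 to 0.081 over the alternatives and was not below 0.05 in 4 of them, which were the fits with no filter on low TPM (0.081), with the replicate number as a block (0.062), without Lv-Piezo1 replicate 3 (0.069) and without Lv-Piezo1 replicate 4 (0.062). The exact two-sided permutation test gave p = 0.057.

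Igfbp7 (ENSRNOG00000002050) was by far the most abundant of these transcripts. IGFBP7 is a secreted protein found in vessel walls and connective tissue and is linked to cell ageing and adhesion. It measured 3322, 3169, 3491 and 3369.97 TPM in Lv-Ctrl and 1770.01, 1759.9, 1715 and 1583 TPM in Lv-Piezo1. Every Lv-Piezo1 sample was lower, 1.96-fold in mean TPM. The log2 fold change was -0.97 (95% interval -1.07 to -0.87, limma adjusted p = 2.2e-07), just under the fold change threshold, and -1.15 after median-ratio scaling, where it passed. Its mean level exceeded that of 99.7% of all tested genes.

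**Figure D2:**
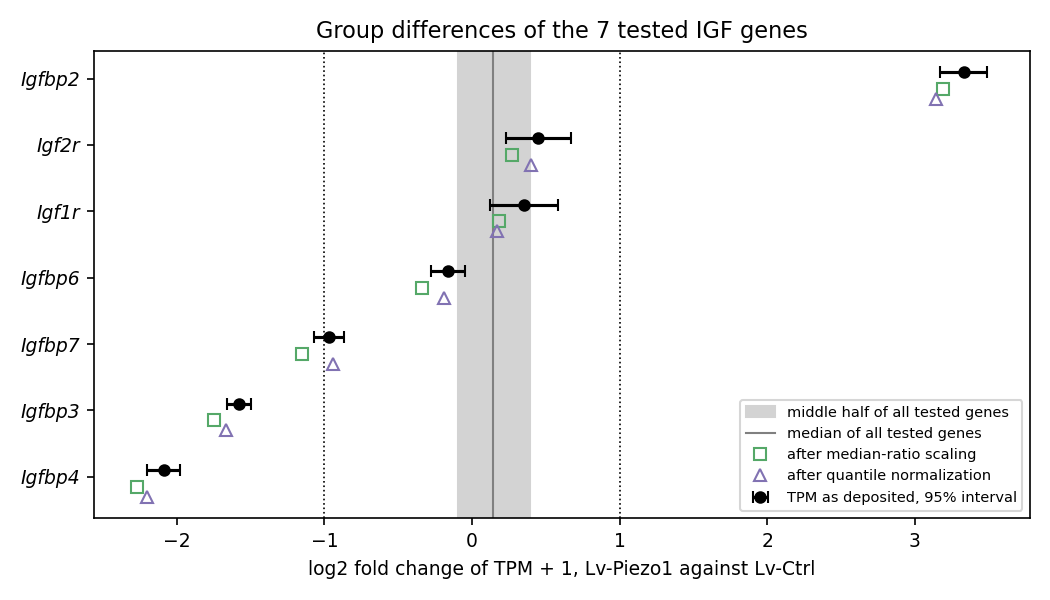
Log2 fold change of TPM + 1 for the 7 tested IGF genes, Lv-Piezo1 against Lv-Ctrl (n = 4 each). Black points with bars are the deposited values with 95% intervals, open squares and triangles are the same after median-ratio scaling and quantile normalization, the grey band is the interquartile range of all tested genes and dotted lines mark the threshold of 1. Igfbp2 stands at 3.33, Igfbp3 at -1.58 and Igfbp4 at -2.09 under all scalings past the threshold, and no gene changes direction with the scaling.

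In all, 3 of the 7 tested IGF genes passed the threshold, 1 higher and 2 lower, beside 7.67% of all tested genes. All 7 had an adjusted p below 0.05 without regard to fold change, as 58.2% of all tested genes had. The groups did not overlap for 6 of the 7, and this held for 54.2% of all tested genes. The median log2 fold change of the 7 was -0.16 and that of all tested genes 0.14. Ordered by level in Lv-Ctrl, Igfbp7 came before Igfbp6. Igf2r (79.9 to 111 TPM), Igfbp3 (93.1 to 97.2 TPM) and Igfbp4 (87.8 to 95.9 TPM) came next and overlapped. They were followed by Igf1r, Igfbp2 and Igfbp5, and last by Igf2 and Igf1, whose ranges overlapped. In Lv-Piezo1 the order was Igfbp7, Igfbp6, Igf2r and Igfbp3, then Igfbp2 (21.8 to 24.8 TPM) and Igfbp4 (20.1 to 22.9 TPM), which overlapped, and then Igf1r, Igfbp5 and the ligands.

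The pool of IGFBP transcripts was smaller in Lv-Piezo1 and differently made up. The sum over Igfbp2 to Igfbp7 was 3705 ± 140 TPM in Lv-Ctrl and 1943 ± 92.9 TPM in Lv-Piezo1 (SD, n = 4 each). Igfbp7 held 90.1% ± 0.28 of it in Lv-Ctrl and 87.9% ± 0.426 in Lv-Piezo1. Without Igfbp7, the sum was 367 ± 10.4 TPM and 236 ± 10.1 TPM. Within this sum, Igfbp6 held 48.3% ± 1.38 in Lv-Ctrl and 67.0% ± 1.14 in Lv-Piezo1, and Igfbp2 held 0.404% ± 0.0424 and 10.2% ± 0.587. The share of Igfbp3 was 25.8% ± 1.07 in Lv-Ctrl and 13.2% ± 0.618 in Lv-Piezo1, and that of Igfbp4 was 25.5% ± 1.00 and 8.99% ± 0.518. Igfbp5 held 0.0764% ± 0.00962 and 0.628% ± 0.0783. None of the 5 shares overlapped between the groups, and the TPM of 54.2% of all tested genes did not overlap either. The shares are parts of the same sum and are not independent of each other. Igfbp6 itself averaged 177 TPM in Lv-Ctrl and 158 TPM in Lv-Piezo1, with overlapping groups, although its share rose. The summed IGFBP transcripts exceeded the summed ligand transcripts 9566- to 21516-fold in Lv-Ctrl and 3468- to 8086-fold in Lv-Piezo1, ratios that rest on ligand sums of 0.18 to 0.58 TPM. These shares and sums are descriptions and were not tested.

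**Figure D3:**
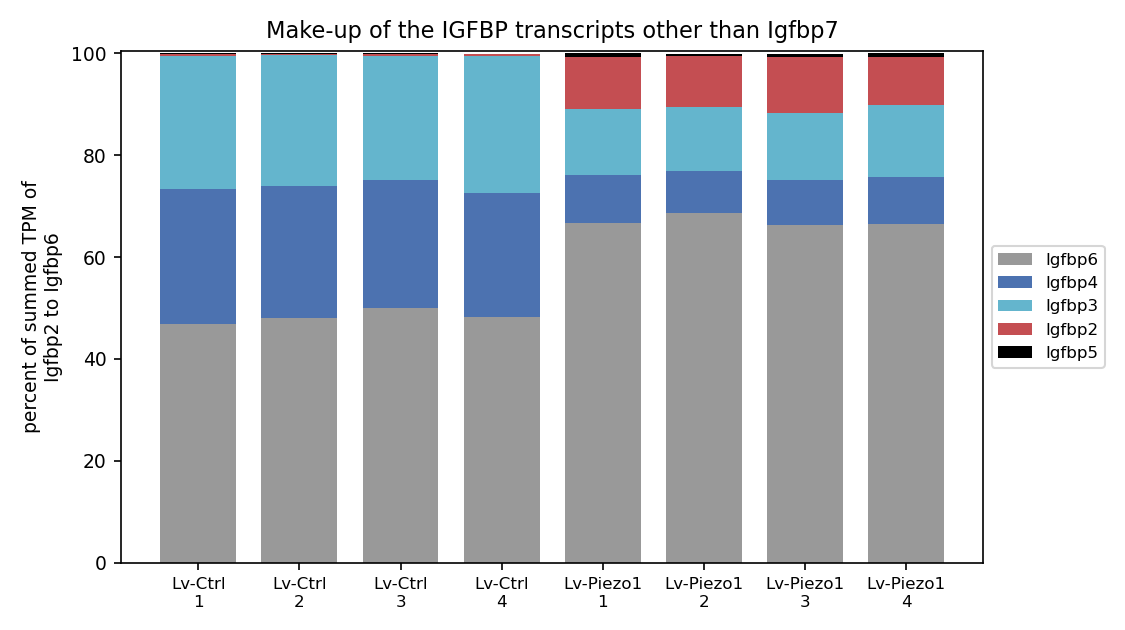
Share of Igfbp2, Igfbp3, Igfbp4, Igfbp5 and Igfbp6 in their summed TPM, in percent, for each of the 8 samples. Igfbp6 makes up 46.8% to 50.1% of a Lv-Ctrl bar and 66.2% to 68.7% of a Lv-Piezo1 bar, and Igfbp2 goes from at most 0.428% to at least 9.55%.

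Other genes of the IGF and insulin family were few in these cells. Of 11 listed genes 3 were tested and 0 passed the threshold, beside 7.67% of all tested genes. The 3 were Insr, with a log2 fold change of 0.37, and the genes of the RNA-binding proteins Igf2bp2 (0.21) and Igf2bp3 (0.26), which bind Igf2 mRNA. The limma adjusted p was 0.0058 for Insr, 0.035 for Igf2bp2 and 0.033 for Igf2bp3, so all 3 had an unadjusted p below 0.05. After median-ratio scaling their log2 fold changes were 0.23, 0.037 and 0.11, with limma adjusted p of 0.028, 0.58 and 0.25. After quantile normalization the limma adjusted p was 0.11, 0.28 and 0.44. With the replicate number as a block, 1 of the 3 had an adjusted p below 0.05. Igfbp1, Igfbpl1, Insrr, Ins1 and Ins2 were listed at 0 in every sample.

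Among proteases that cut IGFBPs and their inhibitors, 10 of 14 listed genes were tested. Of the 10, 1 passed the threshold higher and 2 lower, beside 4.91% higher and 2.76% lower among all tested genes. Mmp3, which encodes stromelysin-1, a matrix metalloproteinase able to cut IGFBP3, fell from 659 ± 17.9 to 232 ± 5.33 TPM (log2 fold change -1.5, limma adjusted p = 1.5e-09). Stc1, whose product stanniocalcin-1 inhibits the IGFBP4 protease PAPP-A, fell from 949.8 ± 143 to 389 ± 37.6 TPM (SD, n = 4 each, log2 fold change -1.28, limma adjusted p = 1.3e-05). Mmp3 and Stc1 kept their calls after median-ratio scaling, at -1.68 and -1.46. Of the 14 listed genes 13 had a row, and no level of the PAPP-A transcript itself is among these values. Tested genes of this list that did not pass the threshold ranged from -0.68 (Mmp2) to 0.40 (Stc2) on the log2 scale. Stc2, which encodes the other stanniocalcin, went the opposite way to Stc1, from 33.3 ± 0.715 to 44.2 ± 1.68 TPM (limma adjusted p = 2.6e-05).

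Of 40 listed genes of signalling below IGF1R, 39 were tested and 0 passed the threshold in limma, beside 7.67% of all tested genes. Their log2 fold changes lay between -0.54 and 0.75. At an adjusted p below 0.05 and any fold change, 20 were higher, 3 were lower and 16 did not pass, beside 41.9% higher and 16.3% lower among all tested genes, and 25 had an unadjusted p below 0.05. After median-ratio scaling 11 were higher and 7 lower, beside 26.7% and 29.2% of all tested genes. After quantile normalization 14 were higher and 5 lower, beside 28.7% and 27.3%. The lower genes, chosen for naming after their values were seen, included Foxo1 (-0.54) and Pik3r1 (-0.32), which encode a transcription factor held back by AKT and a regulatory subunit of PI3K. The median of the list was 0.17, beside 0.14 for all tested genes.

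Of 16 genes that FOXO factors are known to activate, all were tested and Pdk4 alone passed the threshold. This is 1 of 16, beside 7.67% of all tested genes. Pdk4, a kinase that limits the entry of pyruvate into the citric acid cycle, fell from 44.4 ± 4.46 to 17.2 ± 1.44 TPM (SD, n = 4 each, log2 fold change -1.32, limma adjusted p = 1.7e-06). At an adjusted p below 0.05 and any fold change, 5 of the 16 were higher, 5 were lower and 6 did not pass. Among all tested genes 41.9% were higher and 16.3% lower. The median of the 16 was -0.14. This split depended on the scaling. After median-ratio scaling 3 were higher and 10 lower, beside 26.7% and 29.2% of all tested genes, and after quantile normalization 4 were higher and 10 lower, beside 28.7% and 27.3%. Of 8 genes of the growth hormone axis, which drives Igf1 in liver, 1 passed the threshold, beside 7.67% of all tested genes. Cish, a feedback inhibitor induced by STAT5, rose from 9.66 ± 0.848 to 21.2 ± 0.638 TPM (SD, n = 4 each, log2 fold change 1.06, limma adjusted p = 1.0e-06), and it no longer passed after median-ratio scaling (0.89) or quantile normalization (0.90). The median of this list was 0.50.

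**Figure D4:**
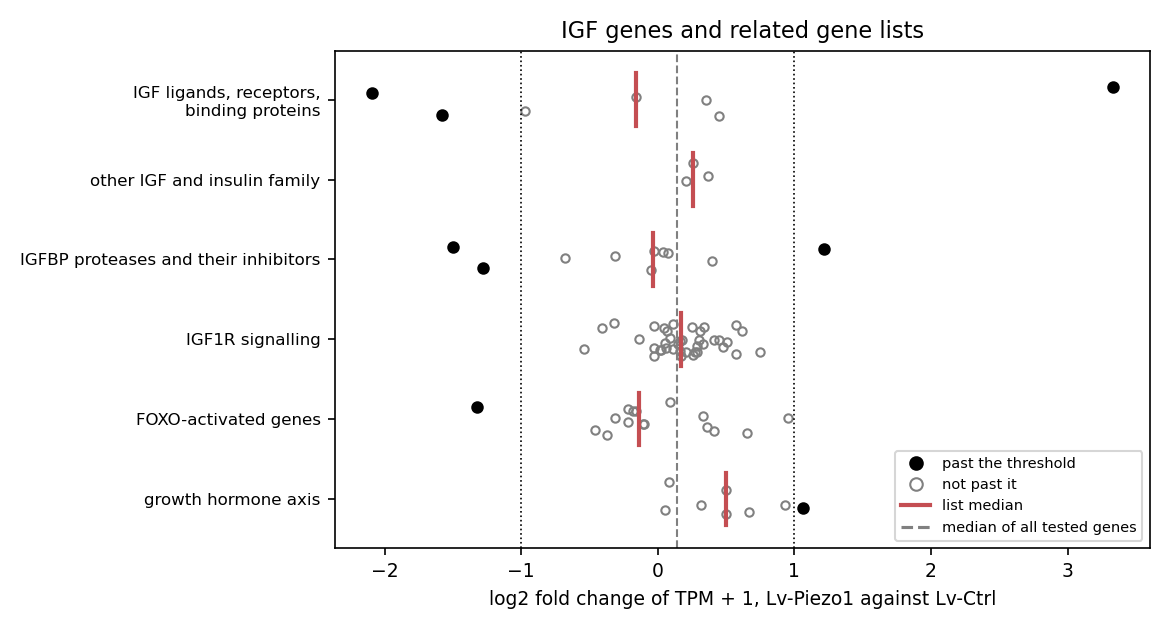
Log2 fold change of TPM + 1, Lv-Piezo1 against Lv-Ctrl, for each tested gene of the IGF system and of 5 related lists. Filled points passed the threshold, red bars are list medians and the dashed line is the median of all tested genes, 0.14. Of the 39 genes of IGF1R signalling 0 passed, while the 7 IGF genes spread from -2.09 to 3.33.

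The genes whose profiles over the 8 samples were nearest to those of the IGF genes with the largest changes were found by the Euclidean distance between centred log2(TPM + 1) values among 9061 tested genes, the gene itself included, that have a gene symbol and a mean of at least 5 TPM. Nearest to Igfbp2 were Lgals9 (distance 0.341), which encodes galectin-9, Rgs16 (0.351), a regulator of G protein signalling, and Thbs4 (0.367), a matrix protein of tendon. Nearest to Igfbp4 were Spry1 (0.205), an inhibitor of receptor tyrosine kinase signalling, Nos2 (0.215), the inducible nitric oxide synthase, and Dio2 (0.222), which activates thyroid hormone. With 2 groups, such a likeness rests mostly on the size of the group difference.

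Markers of other cell types were read beside these values. Among all tested genes, 4.91% passed the threshold higher and 2.76% lower. In bulk samples, fewer cells of a type and less RNA per cell cannot be told apart. Fibrous markers of the annulus and tendon were abundant, with a summed level of 8574 to 9928 TPM over 12 genes in Lv-Ctrl and 11602 to 12471 TPM in Lv-Piezo1, 1 called higher and 2 lower, while the tendon gene Tnmd averaged 0 and 0.02 TPM. Of 12 smooth muscle and pericyte markers, 10 were tested, 6 passed the threshold higher and 2 lower, and their summed level was 828 to 863 TPM in Lv-Ctrl and 4604 to 4773 TPM in Lv-Piezo1. Within this list the log2 fold changes ran from 4.69 for Acta2 down to -2.49 for Abcc9 and -3.03 for Kcnj8, the 2 that passed lower. The part of this list in the differences of Igfbp2, Igfbp3, Igfbp4 and Igfbp7 was not tested. Endothelial markers summed to 0.34 to 0.61 TPM in Lv-Ctrl and 0.39 to 0.62 TPM in Lv-Piezo1 over 7 genes, with Emcn listed at 0 in every sample. Macrophage and leukocyte markers summed to 21.8 to 23.5 TPM and 37.3 to 42.3 TPM. Of the 8 genes, 2 were tested and 1 was called higher. Cd14 (means of 20.9 TPM in Lv-Ctrl and 25.8 TPM in Lv-Piezo1) and Cd68 (0.955 and 12.3 TPM) made up nearly all of the sum. Adgre1 was at 0, Ptprc averaged 0 and 0.0025 TPM, and Csf1r averaged 0.0875 and 0.095 TPM. The part of these markers was not tested. Chondrocyte and nucleus pulposus markers summed to 39.5 to 45.4 TPM and 75 to 83 TPM, 2 called higher, with Tbxt and Shh at 0, and their part was not tested.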

How the data were processed

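RNA sequencing covered 8 AFC samples, with 4 under each of the labels Lv-Ctrl and Lv-Piezo1. The deposited values are TPM per gene. The study's methods name HISAT2, StringTie, FPKM and DESeq, while the submitters' processing notes name DESeq2 and mm10, a mouse build. The identifiers are rat Ensembl genes plus 1139 assembled loci, and the rat build and annotation are not given in the sources used here. The authors' group means in the same table were not used. TPM is not a count, so limma (version 3.58.1, R 4.3.3; empirical Bayes with trend) on log2(TPM + 1) took the place of a count model, with Benjamini-Hochberg adjustment over the 13103 genes with a mean of at least 1 TPM. Single values used exact two-sided permutation tests over 70 relabelings (Python 3.11.15). On simulated data of 13103 genes, 198 of 200 changed genes were recovered and 3 unchanged genes were called. The simulation drew independent noise, had no scaling shift between groups and changed only genes above a Lv-Ctrl level that Igfbp2 does not reach. In the real data 58.2% of tested genes had an adjusted p below 0.05, so the simulation checks the code and gives no error rate for this comparison. Alternatives were another pseudocount, other filters, scalings and moderation, a replicate block, no fold change threshold and each sample left out.

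Members and lists were chosen with earlier results of these data known. Named were all 10 members, up to 3 called genes per direction in each pathway list, the 3 nearest profiles of the 2 members with the largest called changes, and Piezo1. Some further genes of the pathway and marker lists were named after their values were seen. Some genes of the pathway lists are counted but not reported here by name. Start-site sequences and gene order are from RefSeq (GRCr8), in which all 10 members were matched by symbol.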

Additional observations from a re-analysis of the deposited data

Results flagged for a closer look

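In 84 groups of 4 samples, 10 had a sample whose gap to its nearest neighbour, divided by the range of the group, exceeded Dixon's 95% critical value, which chance alone exceeds in about 5% of groups. The groups are not independent, since ratios and shares reuse the same genes.

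In Lv-Ctrl, replicate 4 stood apart in 5 of them. Igf1 measured 0.24 TPM there against 0.03 to 0.05 TPM in the others, which carried the summed ligands to 0.39 TPM against 0.18 to 0.19 TPM and the ratio of Igf1 to Igf2 to 1.60 against 0.188 to 0.385. In the same sample Igfbp3 measured 97.2 TPM against 93.1 to 93.8 TPM, and the ratio of Igfbp3 to Igfbp4 was 1.11 against 0.975 to 0.995. In replicate 2 of Lv-Ctrl, Igfbp2 held 0.0351% of all IGFBP transcripts against 0.0410% to 0.0418%, and 0.341% of those without Igfbp7 against 0.424% to 0.428%. In replicate 3 of Lv-Ctrl, Pdk4 measured 37.8 TPM against 45.7 to 47.3 TPM.

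In Lv-Piezo1, replicate 4 had the lowest Igfbp2, at 21.8 TPM against 24.5 to 24.8 TPM. Igfbp3 held 1.77% of all IGFBP transcripts in this sample against 1.53% to 1.55% in the others. No sample was removed.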

How the results depend on the processing

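The 3 calls among the IGF genes (Igfbp2 higher, Igfbp3 and Igfbp4 lower) were made under every alternative run. With no fold change threshold 58.2% of all tested genes counted. The counts were 7 of 7 for the IGF genes, 3 of 3 for the other IGF and insulin family and 7 of 10 for the proteases and inhibitors. They were 23 of 39 for IGF1R signalling, 10 of 16 for FOXO-activated genes and 6 of 8 for the growth hormone axis. The growth hormone axis had 2 calls with a pseudocount of 0.1 and 0 after median-ratio scaling or quantile normalization. Igfbp7 reached -1.15 after median-ratio scaling, past the fold change threshold. With a pseudocount of 0.1 the log2 differences of the low genes were 0.56 for Igf1, 0.46 for Igf2 and 2.05 for Igfbp5, and that of Igfbp5 was 0.88 after median-ratio scaling. The cause of these shifts beyond the changed setting was not tested.

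Leaving out each sample in turn gave 3 to 3 calls among the IGF genes, 0 to 0 in the other family, 3 to 3 among proteases and inhibitors, 0 to 0 in IGF1R signalling, 1 to 1 among FOXO-activated genes and 1 to 1 in the growth hormone axis. The log2 fold change ran from 0.25 to 0.39 for Igf1r, 0.34 to 0.50 for Igf2r, 3.28 to 3.37 for Igfbp2, -1.59 to -1.56 for Igfbp3, -2.13 to -2.07 for Igfbp4, -0.20 to -0.13 for Igfbp6 and -0.99 to -0.93 for Igfbp7.

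Same-numbered samples did not deviate together (r of -0.0303, -0.0576, -0.051 and -0.0124), so the numbers were not taken as a pairing. With the replicate block, 3 IGF genes and 1004 of all genes were called, against 3 and 1005 without it. The adjusted p of Igfbp6 was 0.062 with the block and 0.024 without it. TPM holds no depth, so no counting error can be given.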
